A study of Mus musculus with 4 samples.

Results

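Among the accessible chromatin sites that every library of the series shares, 662 took a higher place in the order of sites in T cells without Tcf1 and Lef1, a pair of transcription factors, than in wild-type T cells. They were chosen from 7949 autosomal regions with a called peak in all 4 libraries, out of 38986 regions called in any library. Within each library the 7949 regions were ordered by fold enrichment, which is the DNase I signal at the summit over the local background, and given a percentile rank from 0 (lowest) to 1 (highest). A region was a member when its lower rank in the 2 double knockout libraries (DKO) lay at least 0.10 above its higher rank in the 2 wild-type libraries (WT). The folds and ranks therefore chose the members, and they are given below as a description without a test.

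The series measured DNase I accessibility (DNase-seq) in CD8+ T cells from mouse spleen, sorted as naive GFP+ TCRbeta+ cells and cultured for 72 h in the presence of IL-7 and IL-15. All mice carried hCD2-Cre, a Cre recombinase under human CD2 control that acts in lymphocytes, and a Rosa26-lsl-GFP reporter that Cre switches on. The WT mice had unmodified Tcf1 and Lef1 genes, and the DKO mice had floxed alleles of both, labelled Tcf1-/-Lef1-/-. The titles of all libraries call the cells "stim CD8". The labels give 2 replicates per genotype, without age or sex, and do not say whether they came from separate animals. The spread between them may thus be technical.

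DNase I cuts DNA where nucleosomes are absent or displaced, so that promoters, enhancers and insulators in use appear as short stretches of dense cutting. Tcf1 and Lef1 are related high mobility group proteins that bind the same short DNA motif, bend DNA and act at many T cell enhancers, and both are high in naive and memory-like CD8+ T cells. These interleukins sustain naive and memory T cells without antigen. No gene annotation or sequence of the build used by the authors (mm9) was used here, so members are given by position, and the labelled cell type was not checked against marker genes.

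Values are given in the order replicate 1, replicate 2 throughout. The deposited lists ran to 17521 and 11073 peaks (WT), and to 34788 and 21353 (DKO). Read totals were not analysed here. The lowest local background, which grows with depth where no control library sets it, stood at 1.5004 and 1.47 fragments (WT), against 1.23 and 1.15 fragments (DKO). Chromosome Y carried 55 and 57 peaks in the DKO lists and 0 in both WT lists. The genotype and whatever separates the libraries on Y cannot be told apart in any value below.

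Across the 7949 shared regions the folds had a Spearman correlation of 0.60 between the WT replicates and 0.72 between the DKO replicates, against 0.54 to 0.66 between libraries of different genotype. WT replicate 1 was thus closer in order to both DKO libraries than to WT replicate 2.

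The 662 members made up 8.33% of the 7949 shared regions. The mirrored rule, with both WT ranks at least 0.10 above both DKO ranks, was met by 660 regions (8.3%). The rule names 2 other pairings of the 4 libraries for comparison. Pairing by replicate number gave 432 regions with both replicates 1 higher and 418 with both replicates 2 higher, or 5.43% and 5.26%. The crossed pairing gave 442 and 447 regions, or 5.56% and 5.62%. Each of the 4 counts from the other pairings was below both genotype counts. With 3 possible pairings the smallest exact two-sided permutation p is 0.33, so no test of the libraries could pass 0.05. Applied to 3 libraries the same rule found 1724 regions without WT replicate 1, 1527 without WT replicate 2, 1456 without DKO replicate 1 and 1302 without DKO replicate 2, and leaving a library out can only raise this count.

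**Figure D1:**
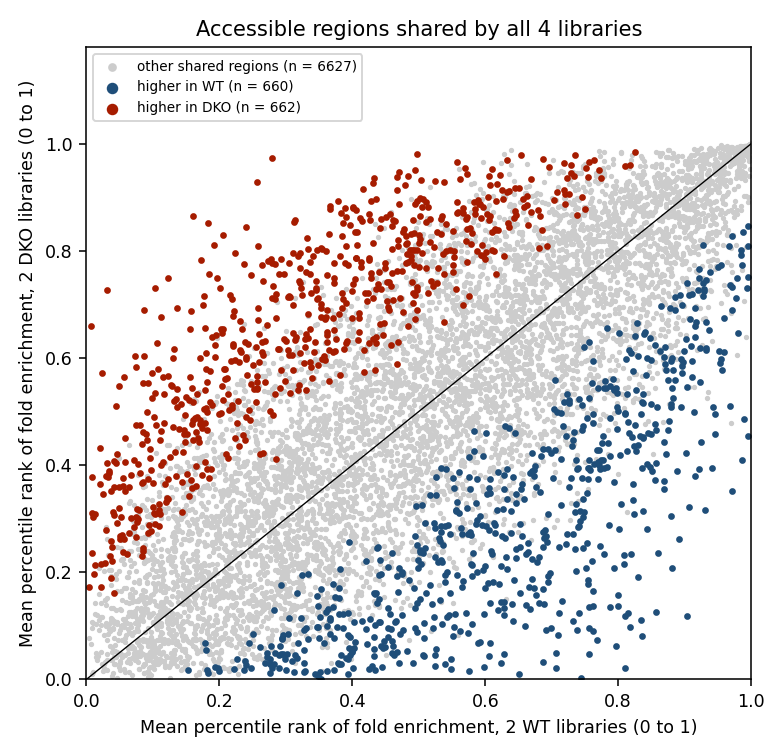
Each point is 1 of the 7949 shared autosomal regions. The x axis is the mean percentile rank of fold enrichment over the 2 WT libraries and the y axis the mean over the 2 DKO libraries (both 0 to 1), with members in red, the mirrored set in blue and the other 6627 regions in grey. The members form a band above the diagonal that runs from weak to strong sites.

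The member that stands furthest from the others lay on chromosome 17, at 34137161 to 34139203 (mm9). Its summit held 23 and 20 fragments in WT, but 701 and 531 in DKO. The DKO values were 28.7 times the WT values on average, against a median ratio of 1.64 over all shared regions. The second largest ratio among the 7949 regions was 3.33, at chromosome 14, 76814351 to 76814667, which is also a member. No other member exceeded 111 fragments in DKO replicate 1 or 74 in DKO replicate 2.

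The called site also changed in extent there. The peak on chromosome 17 spanned 343 and 188 bp in WT, and 1982 and 1527 bp in DKO. Both DKO peaks began at 34137222, and the 4 summits lay between 34137312 and 34137331. The added length in DKO was therefore all on the side of higher coordinates.

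Fold enrichment shows only part of this difference, because the local background at the site rose with the signal. The WT backgrounds were 2.98 and 2.57 fragments, and the DKO backgrounds 31.8 and 25.3. The folds were 6.03 and 5.88 in WT, and 21.4 and 20.2 in DKO, or 5.96 ± 0.105 against 20.8 ± 0.867 (SD, n = 2 each). The nearest shared regions on either side did not share the change. The region before it, 34118116 to 34118490, had 25 and 21 fragments in WT and 51 and 28 in DKO, a ratio of 1.72. The region after it, 34168539 to 34168787, had 28 and 24 fragments in WT and 52 and 26 in DKO, a lower ratio still. Neither of the neighbours is a member. Whether the DNA itself differs here between the genotypes, through a construct or the strain of the mice, was not tested, so the fragments at this site cannot be read as accessibility alone.

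**Figure D2:**
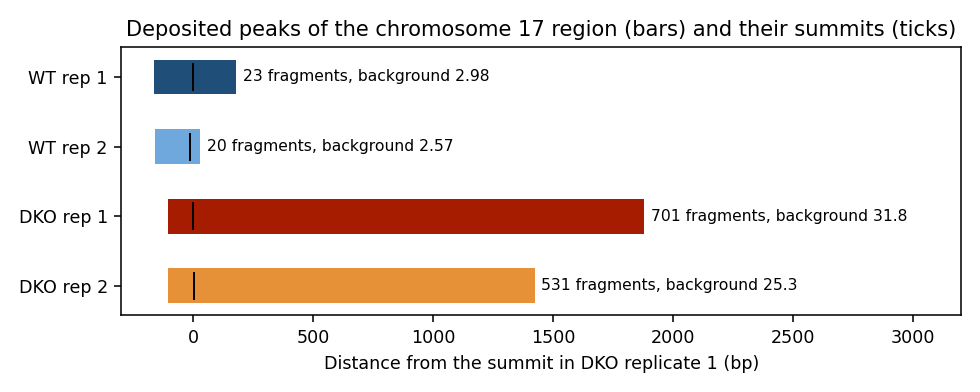
Bars show the extent of the deposited peak in each library at the chromosome 17 site, against the distance in bp from the summit in DKO replicate 1, and ticks mark the summits. The DKO peaks extend well over 1000 bp beyond the WT peaks on 1 side, with 701 and 531 fragments at the summit against 23 and 20 in WT.

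The largest gap in rank belonged to a narrow site of 176 bp on chromosome 11, 22186987 to 22187162. WT had folds of 6.03 and 5.69 there, and DKO had 20.02 and 15.03. It ranked at 0.221 and 0.291 among the shared sites in WT and at 0.931 and 0.928 in DKO, a gap of 0.637. The site was thus among the weaker shared sites of both WT libraries and close to the top of both DKO libraries. Its summit held 15 and 14 fragments in WT and 57 and 37 in DKO, over backgrounds of 1.53 to 1.90 fragments in the 4 libraries.

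Several of the widest gaps were at sites that only just passed the listing limits in WT, where the smallest fold in each list lay just above 4. Chromosome 14, 76814351 to 76814667, had folds of 4.27 and 4.04 in WT and 14.6 and 11.3 in DKO. Chromosome 1, 74647821 to 74648134, had 4.85 and 4.02 in WT and 16.8 and 11.0 in DKO. Chromosome 3, 95754662 to 95755397, had 4.19 and 4.43 in WT and 14.2 and 10.1 in DKO. At all 3 sites both WT ranks were at or below 0.06, while the DKO ranks lay above 0.55. A further pair had WT folds under 5 in both libraries. Chromosome 5, 23866744 to 23866934, had 4.87 and 4.85 in WT and 14.5 and 12.0 in DKO. Chromosome 7, 52459796 to 52460110, had 4.95 and 4.43 in WT and 13.996 and 10.1 in DKO. A slightly lower WT signal would have kept such sites off a WT list and thereby out of the shared regions. Both WT folds were under 5 at 68 of 662 members (10.3%) and 258 of 7949 shared regions (3.25%). They were under 5 at 0 of 660 regions of the mirrored set, a count fixed by its rule. Mirrored regions must rank in WT at least the required gap above the bottom. Folds under 5 in WT replicate 1 ranked lower than that. Members were chosen for WT ranks below their DKO ranks, which favours low WT folds, so their share is only descriptive. In the mirrored set both DKO folds were under 5 at 2 regions (0.303%). DKO folds ran higher in general, so a fold of 5 does not mark the same part of the DKO order.

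At other sites both WT folds were low, and WT replicate 2 was the lower. Chromosome 12, 77187491 to 77187870, had folds of 5.85 and 4.51 in WT and 16.5 and 11.7 in DKO. Chromosome 5, 36235804 to 36236125, had 6.45 and 4.30 in WT and 19.5 and 12.8 in DKO. Chromosome 17, 56443515 to 56443735, had 6.38 and 4.82 in WT and 18.4 and 11.9 in DKO. The same order of the WT libraries held at the next 3 sites. Chromosome 11, 69495407 to 69495651, had 5.86 and 5.05 in WT and 15.7 and 13.3 in DKO. Chromosome 19, 10969583 to 10969796, had 6.65 and 5.02 in WT and 16.9 and 14.1 in DKO. Chromosome 6, 89545535 to 89545827, had 6.52 and 4.83 in WT and 16.4 and 14.2 in DKO. These sites were grouped by this order of the folds, which was not counted over all members. Folds ran higher in WT replicate 1 over all shared regions (medians 7.53 and 6.62). By rank, WT replicate 1 was the higher WT library at 383 of 662 members, and DKO replicate 1 the lower DKO library at 366. The same counts over all shared regions were not made.

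The 2 DKO folds were nearly equal at chromosome 17, 84712896 to 84713199, at 16.1 and 16.0, and the WT folds there were 6.05 and 4.98. Folds ran higher in DKO replicate 1 over all shared regions (medians 13.2 and 9.60), and by rank the DKO libraries stood apart there, at 0.748 and 0.955. At chromosome 15, 58765157 to 58765433, the DKO folds were far apart, at 18.1 and 10.5, while WT had 5.09 and 4.90. The gap of 0.474 at that site was set by DKO replicate 2, which ranked at 0.597 against 0.863 in DKO replicate 1. In the difference between the DKO folds, though not in that between the DKO ranks, the remaining sites of the 20 lay between these extremes.

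Chromosome 14, 69903026 to 69903310, had folds of 5.28 and 5.57 in WT and 15.9 and 12.3 in DKO. Its background was high, and reached 5.28 fragments in WT replicate 2 and 5.53 in DKO replicate 1. Chromosome 7, 133343933 to 133344271, had 6.17 and 6.06 in WT and 17.7 and 13.7 in DKO. Chromosome 11, 121282405 to 121282767, had 6.47 and 5.68 in WT and 17.2 and 12.0 in DKO. The last 2 of the 20 were weaker in both genotypes. Chromosome 12, 56403520 to 56403837, had 5.10 and 4.73 in WT and 14.97 and 10.03 in DKO. Chromosome 16, 18811661 to 18811970, had 5.26 and 4.75 in WT and 14.2 and 10.1 in DKO, a gap of 0.452.

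**Figure D3:**
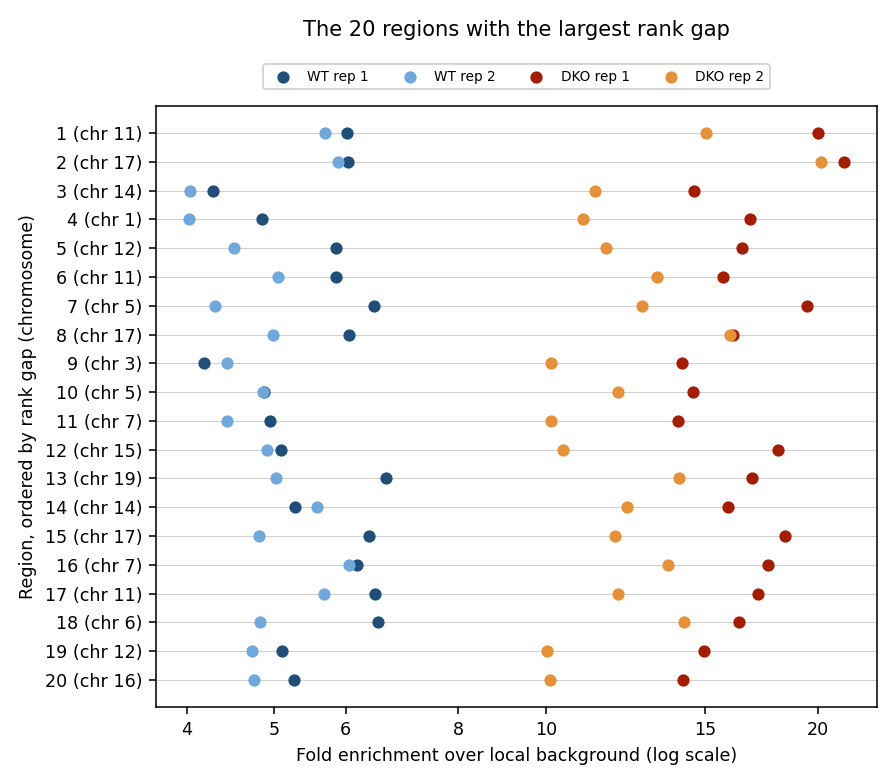
Fold enrichment (x axis, log scale) in each library for the 20 members with the largest rank gap, ordered from the largest gap at the top and marked with their chromosome. All WT points lie between 4.02 and 6.65 and all DKO points between 10.03 and 21.4, with DKO replicate 2 below DKO replicate 1 in every row.

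The strongest members in DKO were other sites. Ordered by the lower of the 2 DKO folds, the 10 highest shared only the chromosome 17 site at 34137161 with the 20 of largest gap. Chromosome 6, 119338749 to 119339010, had folds of 8.44 and 8.51 in WT and 22.4 and 19.97 in DKO. Chromosome 1, 55084227 to 55084425, had 7.33 and 8.79 in WT and 22.2 and 19.9 in DKO. Chromosome 11, 73012770 to 73013054, had 8.31 and 7.95 in WT and 21.1 and 19.6 in DKO. These were sites of middle to upper rank in WT that came close to the top in DKO. Chromosome 7, 3568721 to 3569090, had the highest fold of any member, 27.4 in DKO replicate 1, with 17.5 in DKO replicate 2 and 9.84 and 8.63 in WT. Chromosome 13, 74199523 to 74199969, had 19.2 and 19.96 in DKO, while the WT libraries differed, at 8.83 and 5.45.

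WT folds also differed at the next 3 sites, with replicate 1 higher, as its folds were in general. By rank the first of these differed less between WT replicates, at 0.7925 and 0.666, than chromosome 1, 55084227 to 55084425, at 0.462 and 0.845. Chromosome 12, 103677830 to 103678165, had 9.55 and 7.43 in WT and 19.3 and 18.1 in DKO. Chromosome 5, 143996651 to 143996958, had 10.1 and 7.05 in WT and 20.8 and 18.1 in DKO. Chromosome 10, 78560212 to 78560604, had 9.09 and 5.78 in WT and 18.7 and 17.1 in DKO. The WT replicates were closer at the last of the 10, chromosome 2, 77784206 to 77784533, which had 8.07 and 7.30 in WT and 18.3 and 17.3 in DKO. The 10 had gaps from 0.104 to 0.230, apart from the chromosome 17 site with 0.621. With that site left out, their higher WT ranks were already 0.644 to 0.845, which left little room above. At the chromosome 17 site the higher WT rank was 0.337.

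The members covered nearly the whole range of signal. Their WT ranks ran from 0.001 to 0.844 in replicate 1, with a median of 0.332, and from under 0.001 to 0.849 in replicate 2, with a median of 0.298. In DKO they ran from 0.120 to 0.992 in replicate 1, with a median of 0.667, and from 0.145 to 0.990 in replicate 2, with a median of 0.698. In 217 of the 662 members (32.8%) both WT ranks were under 0.50 and both DKO ranks at or above it. In 26 (3.93%) both WT ranks were under 0.25 and both DKO ranks at or above 0.50. At the upper end, 44 members (6.65%) had both DKO ranks at 0.9 or above. These counts use the ranks that chose the members. The same shares over all shared regions were not counted, so they only describe where the members lay.

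Most gaps were moderate. The median gap was 0.172, and 260 members had a gap of at least 0.20 (39.3% of members, 3.27% of shared regions), 104 of at least 0.30 (15.7% of members, 1.31% of shared regions) and 10 (1.51%) of at least 0.50. In the mirrored set 45.6% reached 0.20 and 26 (3.94%) reached 0.50. The gap exceeded the rank difference between the WT replicates and that between the DKO replicates in 383 members (57.9%), and in 403 of 660 (61.1%) of the mirrored set. Since the rule takes the lower DKO and the higher WT rank, it favours regions with close replicates. Replicates differed in rank by a median of 0.0937 (WT) and 0.0866 (DKO) at members, against 0.157 and 0.127 for all shared regions.

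Just inside the limit lay chromosome 14, 28154719 to 28154957, with folds of 4.75 and 4.37 in WT and 9.26 and 6.89 in DKO. It was followed by chromosome 11, 20990988 to 20991401, with 9.23 and 6.43 in WT and 18.0 and 13.4 in DKO, and by chromosome 7, 132851184 to 132851493, with 9.07 and 7.69 in WT and 20.4 and 13.1 in DKO. Just outside it lay chromosome 2, 155418379 to 155418626, with 4.10 and 4.61 in WT and 10.4 and 6.87 in DKO. It was followed by chromosome 17, 35900780 to 35901200, with 5.98 and 5.31 in WT and 11.3 and 8.74 in DKO, and by chromosome 4, 129722932 to 129723302, with 5.89 and 5.88 in WT and 14.8 and 9.09 in DKO. The latter pair just inside had higher folds in all 4 libraries than the sites just outside, while the first just inside had folds within or below their range. A further 855 shared regions (10.8%) had both DKO ranks above both WT ranks by less than 0.10.

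Folds ran higher in the DKO lists at shared regions in general, which is why ranks were used. Over the 7949 regions the WT lists had median folds of 7.53 and 6.62, and the DKO lists 13.2 and 9.60, a median log2 difference of 0.66. Both DKO folds lay above both WT folds at 6116 shared regions (76.9%), at all 662 members, and at 172 of 660 regions (26.1%) of the mirrored set. At members the median folds were 6.66 and 5.72 in WT and 15.1 and 11.4 in DKO, a median log2 difference of 1.07. Relative to all shared regions the members were 0.41 higher on the log2 scale (quartiles 0.33 and 0.53). The mirrored set was 0.48 lower, though most of its regions still had higher folds in DKO.

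The members differed from the other sites in the fragments at the summit, with little difference in the background around it. The number of fragments over the summit (pileup) and the local background were solved from the deposited fold and p of each peak. The rule ranked that same fold, so members had to differ in pileup, in background or in both. The values only describe how the difference was divided between them. Members had a median pileup of 21 and 16.5 fragments in the WT libraries, and of 50 and 32 in the DKO libraries. The 6627 regions in neither set had 25 and 20 fragments (WT), and 45 and 27 (DKO). Members thus had fewer fragments than the others in WT and more in DKO. The log2 pileup difference between DKO and WT was 0.42 above that of all shared regions, while the log2 background difference was above it by less than 0.01. By rank of pileup 445 members (67.2%) kept a gap of at least 0.10, against 668 of the 7949 regions (8.4%). By rank of background 62 members (9.37%) had such a gap, against 619 of the shared regions (7.79%).

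**Figure D4:**
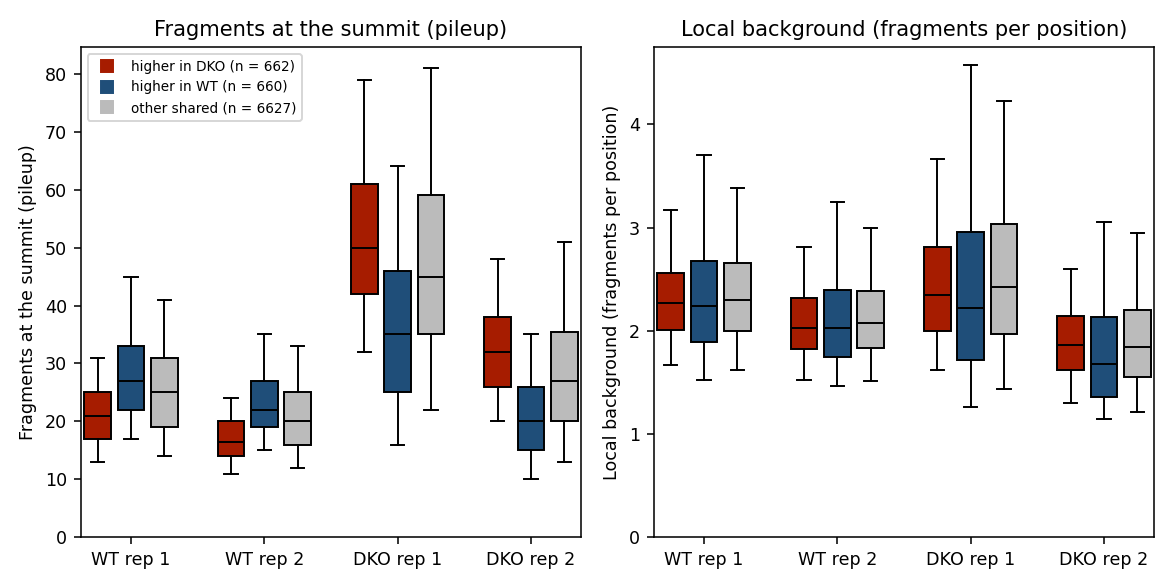
Fragments at the summit (left) and local background in fragments per position (right) for members, the mirrored set and the other shared regions in each library. Boxes span the quartiles with the median as a line, and whiskers the 5th to 95th percentile. The red boxes are lower than the grey in both WT libraries and higher in both DKO libraries on the left, and close to the grey on the right.

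Significance as the peak caller gave it followed the fold. Members had a median −log10 p of 14.04 and 10.6 in the WT lists, and of 48.8 and 28.4 in the DKO lists, against 17.2, 13.4, 40.9 and 22.4 over all shared regions in the same order. By rank of −log10 p 546 members (82.5%) kept a gap of at least 0.10, against 672 of the shared regions (8.45%). All of these come from the same peaks as the fold and add no independent evidence.

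Peak width did not separate the genotypes at members in the way the signal did. WT peaks at members had median widths of 206 and 182 bp, and DKO peaks 271 and 239 bp, against 220, 193, 276 and 235 bp over all shared regions. By rank of width 86 members (12.99%) had a gap of at least 0.10, against 7.99% of shared regions. Both DKO ranks of width lay above both WT ranks at 23.4% of members and 17.4% of shared regions. Both shares were somewhat higher at members. The chromosome 17 site described above was the widest shared region of all, at 2043 bp. The union regions of members had a median width of 318.5 bp, against 320 bp over all shared regions. In 639 members (96.5%) each library had exactly 1 peak, as in 7515 of all shared regions (94.5%). The outermost of the 4 summits at members lay a median of 45.5 bp apart, against 43 bp for all shared regions. Members were in this like shared regions in general.

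Counting error was large for single sites. With a pileup of 9 to 39 fragments in the WT libraries, the 95% Poisson interval of a member's pileup, turned into a rank, spanned a median of 0.783 and 0.844 of the order. For the DKO libraries it spanned 0.576 and 0.653. These intervals hold the background fixed and cover counting error only, since reads that are PCR copies are not independent. The intervals of both DKO libraries lay above those of both WT libraries at 1 of 662 members (0.151%), the chromosome 17 site at 34137161. In the mirrored set the intervals of both WT libraries lay above those of both DKO libraries at 10 of 660 regions (1.52%). Overlap of separate intervals is not a test of a difference, and with intervals this wide it was nearly bound to occur.

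All 19 autosomes held members, from 6.18% of the shared regions on chromosome 19 (17 of 275, exact 95% interval 3.64 to 9.71%) to 11.2% on chromosome 15 (35 of 312, 7.94 to 15.3%). These intervals treat regions as separate units. The largest number was on chromosome 11, with 70 members of 658 shared regions (10.6%, 8.39 to 13.2%), whose interval lies just above the 8.33% of all autosomes. It was the highest lower bound of 19 chromosomes and no test was made of it.

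No window of 100 kb held more than 2 members, and 24 windows of 638 held 2. In the mirrored set 1 window held 7. Another member lay within 100 kb of 95 members (14.4%, exact 95% interval 11.8 to 17.3%), and a member lay within 100 kb of 1068 of the 6627 regions in neither set (16.1%), so the share at members was near that of other sites. The larger sets found with 3 libraries had higher shares of members near another, at 33.9% without WT replicate 1, 31.6% without WT replicate 2, 29.1% without DKO replicate 1 and 29.3% without DKO replicate 2. Another member lay within 5 kb of 4 members (0.604%), and a member within 5 kb of 31 of the regions in neither set (0.468%). The 4 members formed a pair on chromosome 10, at 79604071 to 79604369 and 79604910 to 79605124, which lay 540 bp apart, and a pair on chromosome 7, at 52000588 to 52000829 and 52003623 to 52004098. These pairs were singled out after their values were seen.

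The share of sites with a close neighbour depended on the kind of neighbour. Another region called in any library lay within 5 kb of 229 of the 662 members (34.6%, exact 95% interval 31.0 to 38.4%). This share was 38.8% among the 6627 regions in neither set and 48.2% in the mirrored set. Another region called in all 4 libraries lay within 5 kb of 6.65% of members (4.87 to 8.82%), 8.41% of the regions in neither set and 14.2% of the mirrored set. A region called in both DKO libraries and neither WT library lay within 5 kb of 29 members (4.38%, 2.95 to 6.23%), against 7.59% and 8.94%. Without DKO replicate 1 the larger set had 6.73%. A region of the mirrored set lay within 5 kb of 10 members (1.51%, 0.727 to 2.76%), against 1.27% of the regions in neither set. Limiting the regions in neither set to the members' range of mean rank kept 6047 of them and left the first 3 shares at 39.2%, 8.14% and 7.56%. Between the members' quartiles of mean rank, with 2403 regions, they were 38.8%, 7.41% and 7.16%. Within 100 kb the order was not kept, with a region called in both DKO libraries and neither WT library near 67.7% of members, 65.4% of the regions in neither set and 65.0% of the mirrored set. The number of neighbours did not enter the rule as such, but neighbours are called in the same libraries, and no test was made. The ranked fold is taken over the local background. Whether signal from close neighbours enters that background, and so the choice of members, was not tested.

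**Figure D5:**
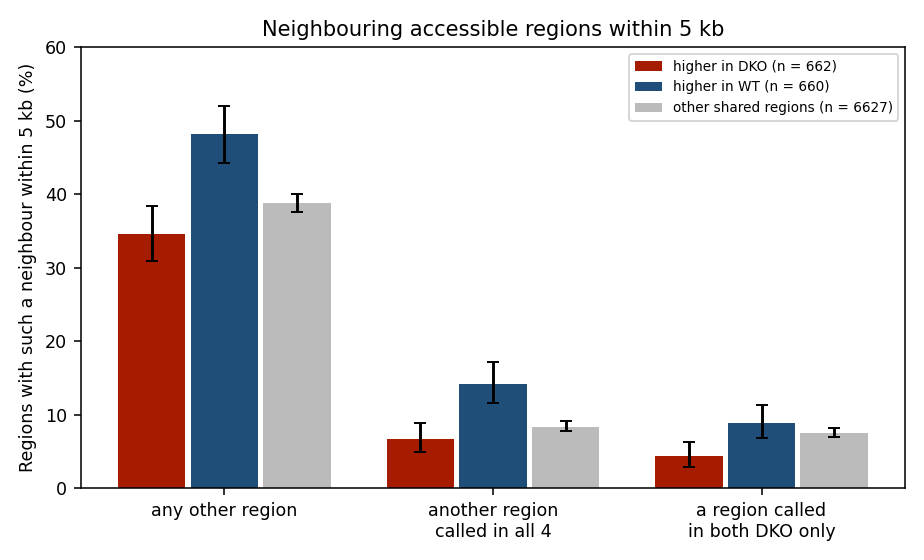
Share of regions (y axis, %) with a neighbouring region of each kind within 5 kb, for members (red), the mirrored set (blue) and the other shared regions (grey). Error bars are exact 95% binomial intervals that treat regions as separate units. The red bars are the lowest of each group, at 34.6%, 6.65% and 4.38%.

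Shared regions that lay near a member but met neither rule leaned the same way by a little. Within 5 kb of a member there were 31 such regions, with a median difference of 0.028 between mean DKO rank and mean WT rank, and DKO was higher at 19 of them (61.3%). Within 20 kb there were 231, with a median of 0.029 and DKO higher at 140 (60.6%). Within 100 kb there were 1068, with a median of 0.012 and DKO higher at 575 (53.8%). Over all 6627 regions in neither set the median was 0.001 and DKO was higher at 50.4%. Near the mirrored set the lean was the opposite at short range, with DKO higher at 27 of 84 regions within 5 kb (32.1%), at 115 of 271 within 20 kb (42.4%) and at 475 of 969 within 100 kb (49.0%). The quartiles of the 31 regions were −0.050 and 0.127, so single neighbours lay on both sides. All these counts leave out regions of either set. Within 5 kb of a member those were 4 members and 10 regions of the mirrored set. Within 5 kb of a mirrored region they were 10 members and 16 mirrored regions. The lean near members is thus given only for regions that met neither rule, and it was not tested.

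Members had to be called in both WT lists, which are shorter than the DKO lists, so sites listed in DKO alone are outside the rule. There were 18691 autosomal regions with a peak in both DKO lists. Of these, 7949 had a peak in both WT lists, 5313 in 1 of them and 5429 in neither. Both DKO folds reached the medians of the shared regions at 446 of the 662 members (67.4%) and at 3063 of all 7949 shared regions (38.5%). They also did so at 609 regions listed in 1 WT library and at 233 listed in neither, for which no WT rank can be given.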

How the data were processed

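Each library had its own list of peaks. The submitters' processing notes name mm9, Bowtie2 2.2.5 and MACS2 2.1.1. Whether a control library was used, how duplicates were handled and which settings applied is not given in the sources used here. The authors deposited for each peak a fold enrichment (a linear ratio of summit to local background), −log10 p, −log10 q and a score of 10 times the −log10 q. Positions were converted to count from 1. Peaks overlapping by at least 1 bp were merged, and the highest fold per library was ranked over the 7949 shared autosomal regions. Pileup and background were solved from fold = (pileup + 1)/(background + 1) and the Poisson p. The pileup came out whole within 0.02 for 100% of peaks, and the code recovered planted values on simulated data.

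Regions named are the 20 with the largest gap, the 10 with the highest lower DKO fold and 3 on each side of the limit. The windows with most members, tied at 24, are not listed. The members and lists were chosen with earlier results of these data known. Alternatives covered the gap, the ranked measure, merging, list length, X and each left-out library. Planned motif, promoter and gene list counts needed an mm9 genome and were not done. Python 3.11.15, pandas 2.3.3, numpy 2.4.6 and scipy 1.17.1 were used.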

Additional observations from a re-analysis of the deposited data

Results flagged for a closer look

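Peaks on chromosome Y, which no comparison of shared sites uses, numbered 55 in DKO replicate 1 and 57 in DKO replicate 2, against 0 in both WT libraries. The labels give no sex. The part of this difference in the autosomal ranks was not tested, and with 2 libraries per genotype the genotype and this difference cannot be told apart.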

How the results depend on the processing

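Of 16 settings, 8 kept the number of members within 1.5 times of 662. The others gave 1003 at a gap of 0.05, 260 at 0.20, 2288 with mean ranks, and 1302 to 1724 with 1 library left out. With the replicate number as a block (a gap of 0.10 within both numbers) there were 1000. The labels do not say that numbers pair samples, and the replicate differences of WT and DKO did not go together (correlation −0.0065 across regions). Ranking by −log10 p gave 672 regions, 546 of them members. Ranking by pileup gave 668, with 445 members, and ranking by peak width 635, with 86. Equal lists of 11073 peaks gave 469, with 433 members, among 5331 shared regions.

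The share of members near another member was 6.92% at a gap of 0.20, 0.604% within 5 kb, and 29.1 to 33.9% with 1 library left out, where the set itself is larger. The share with a DKO-only region nearby was 11.3% within 10 kb and 5.28 to 6.73% with 1 library left out. The settings that left out a library for these shares, changed their distance or concerned DKO-only neighbours were chosen after seeing the data. For the 35 named regions, the mean DKO rank stayed above the mean WT rank in 377 of 391 values over 12 settings, and reversed in 14, all by peak width: −0.036 (chromosome 11, 22186987), −0.090 (14, 76814351), −0.017 (1, 74647821), −0.065 (11, 69495407), −0.13 (5, 23866744), −0.10 (14, 69903026), −0.26 (11, 121282405), −0.048 (13, 74199523), −0.23 (12, 103677830), −0.0084 (5, 143996651), −0.19 (2, 77784206), −0.42 (10, 78560212), −0.0076 (14, 28154719) and −0.056 (7, 132851184). The cause was not tested. The 35 regions were chosen with both DKO ranks above both WT ranks, so leaving out a library could not reverse them. By the gap of the rule itself, the ranks of the genotypes overlapped at 24 named regions by peak width, 2 by pileup and 1 at equal list lengths. A region was lost under a setting in 29 cases. Motif and promoter settings were not run. Depth limits single sites: WT summits of members held 9 to 39 fragments.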
